A study of Mus musculus with 6 samples.

Results

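The genes described here encode solute carriers, subunits of the sodium pump and ATP-binding cassette (ABC) transporters, the membrane proteins that move transmitters, ions, metabolites and lipids into and out of cells and organelles. They were measured by RNA sequencing of the left cochlea of C57BL/6 mice exposed to a narrow band sound of 16 kHz, in 3 animals with sound trauma alone by their labels (specimens 6, 8 and 10) and in 3 also treated with mesenchymal stromal cells (MSCs, specimens 13, 18 and 20). Both groups were female mice, 4 weeks old by the methods, exposed to the sound on one side and treated 2 days later in the left ear. The MSCs were human, were isolated from umbilical cord tissue (Wharton's jelly), and were placed in saline into the perilymph through the posterior semicircular canal. The methods describe an injection of artificial perilymph in the control animals, which the labels do not mention, so the fluid injected may have differed between the groups as well as the cells. RNA was taken 2 days after treatment by the labels, and the methods give a longer interval. The labels number the specimens and say nothing of cages, litters or surgery days, so p-values measure the spread between these samples only. The methods describe more animals in each group than the libraries analysed here, and the authors' lists may rest on them.

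Members were selected on the study's own comparison of MSC treated with sound trauma animals. A gene was included when the authors had placed it on their list of down-regulated or up-regulated genes and its symbol began with Slc, Slco, Atp1a, Atp1b or the letters of an ABC subfamily. This gave 86 genes of 41096 in the table, with 60 from the down-regulated and 26 from the up-regulated list. The direction of each gene's difference was therefore set by the way it was chosen and is a description of these libraries, not a test. In 82 of the 86 genes the reads were sufficient for the fit across all genes, and Slc5a1, Slc7a3, Abca12 and Abcc12, all from the down-regulated list, were left out of it by the filter on low counts. Genes on neither list carry no symbol in the files, so other members of these families were not described here, and Slc17a8, Slc12a2, Slc26a4, Slc26a5 and Atp1b1 were not among the 86.

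In the cochlea, inner hair cells release glutamate onto the afferent fibres of the auditory nerve, and carriers of the Slc1 family in neighbouring supporting cells and glia take it up again. The sodium pump keeps the sodium and potassium gradients that drive many Slc1, Slc6, Slc8 and Slc4 carriers, and in the stria vascularis pumps and chloride cotransporters together feed the potassium of the endolymph. Carriers of the Slc25 family sit in the inner mitochondrial membrane, and ABC transporters use ATP directly to move lipids, drugs and peptides.

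Values are scaled counts, which are read counts multiplied by 1 factor per library, and are listed in the order 6, 8 and 10 for sound trauma and 13, 18 and 20 for MSC treated animals. A read count of 3, taken as the floor, was worth 2.68 to 3.48 scaled counts depending on the library. Differences are the mean of log2(scaled count + 1) in MSC treated animals minus that in sound trauma animals, each with its standard error (SE) from limma and n = 3 per group. Libraries held between 9170390 and 11030863 reads on genes.

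The libraries within each group were not alike, and the markers of several tissues differed between them. Marker genes could be found only where the authors' lists name them. The summed level of 16 of 19 central neuron markers was 49493 scaled counts in specimen 8 and between 5742 and 12476 in the other 5 libraries, and 15 of the 16 were highest in specimen 8. The 7 of 11 markers of myelinating cells summed to 33073 in specimen 8, 23583 in specimen 6 and 23120 in specimen 18, and to 9211 to 11837 in the other 3, and the 6 of 10 astrocyte markers to 14954 in specimen 8 and 1998 to 6645 in the rest. The 12 of 14 skeletal muscle markers summed to 935561 in specimen 6 and 534504 in specimen 13, against 38783 to 219412 in the other 4, and all 12 were highest in specimen 6. The 7 of 11 choroid plexus markers summed to 8285 in specimen 6 and 5597 in specimen 8, and to at most 430 in the other 4 libraries. Of the cochlear cell types, 3 of 12 hair cell markers summed to 291, 272 and 674 after sound trauma and to 513, 637 and 488 after MSC treatment. The sums were 2050.1, 2699 and 4183 against 2968, 3721 and 3116 for 4 of 11 supporting cell and otic matrix markers, and 1888, 2314 and 1519 against 1323, 2429 and 1201 for 3 of 9 stria vascularis markers. Both of these sums joined members that ran opposite ways. That of the stria vascularis was carried by Kcnj10, from the down-regulated list, while Kcnq1 and Kcne1, from the up-regulated list, were lowest in specimens 8 and 6. In the supporting cell list Otog and Otoa were up-regulated and Fgfr3, also an astrocyte marker, and Sox2 down-regulated by the authors' lists. No marker of any list was at 0 in a library, and the groups overlapped in the sum of every list. Of the single markers of these lists, Folr1 and Clic6 (choroid plexus) were lower in every treated library than in any sound trauma library. Over all genes in the fit, 2.92% were separated in that direction. Folr1 was not in the fit and lay under the floor in specimen 13. At an unadjusted limma p under 0.05, 2 of the 6 choroid plexus markers in the fit were lower (Ttr, 0.0363, and Clic6, 0.0189), beside 0.67% of all genes. These markers were named after their values were seen, and nothing is read from these counts. In whole tissue, fewer cells of a type and less RNA per cell cannot be told apart.

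Over the 82 genes in the fit, 56 had a lower and 26 a higher mean in MSC treated animals, which is the division of the authors' lists. The median log2 difference was -0.70 over the genes of the down-regulated list, with a range from -2.81 to -0.17, and 0.42 over those of the up-regulated list, with a range from 0.23 to 0.81. Over all 15970 genes in the fit the median was 0.0014 and the median SE 0.24. In 18 genes the log2 difference was -1 or lower, and in 0 it was 1 or higher. No gene of the 15970, and none of the 82, had a limma adjusted p under 0.05 (percent of all genes called, 0), and the smallest adjusted p was 0.954. The counts were also 0 with the edgeR quasi-likelihood test and with DESeq2. At an unadjusted p under 0.05, limma called 2 transporter genes lower (Slc5a8 and Slc4a3) and 1 higher (Slc16a6), beside 0.67% of all genes lower, 1.68% higher and 2.35% in either direction. At the same unadjusted threshold edgeR called 8 transporter genes lower and 3 higher, beside 1.67% of all genes lower and 1.62% higher. DESeq2 called 22 lower and 1 higher, beside 3.44% of all genes lower and 1.56% higher.

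In 8 of the 86 genes (9.30%) the 3 values of one group all lay above the 3 of the other. These were Slc4a3, Slc2a13, Slc5a8 and Slc35b1, lower after MSC treatment, and Slc16a6, Slc2a9, Slc35a3 and Abcc2, higher after it. Over all genes in the fit, 2.92% were separated in the lower direction, 4.25% in the higher direction and 7.16% in either. Since the same contrast chose the members, nothing is read from these counts. In all other members the groups overlapped.

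**Figure D1:**
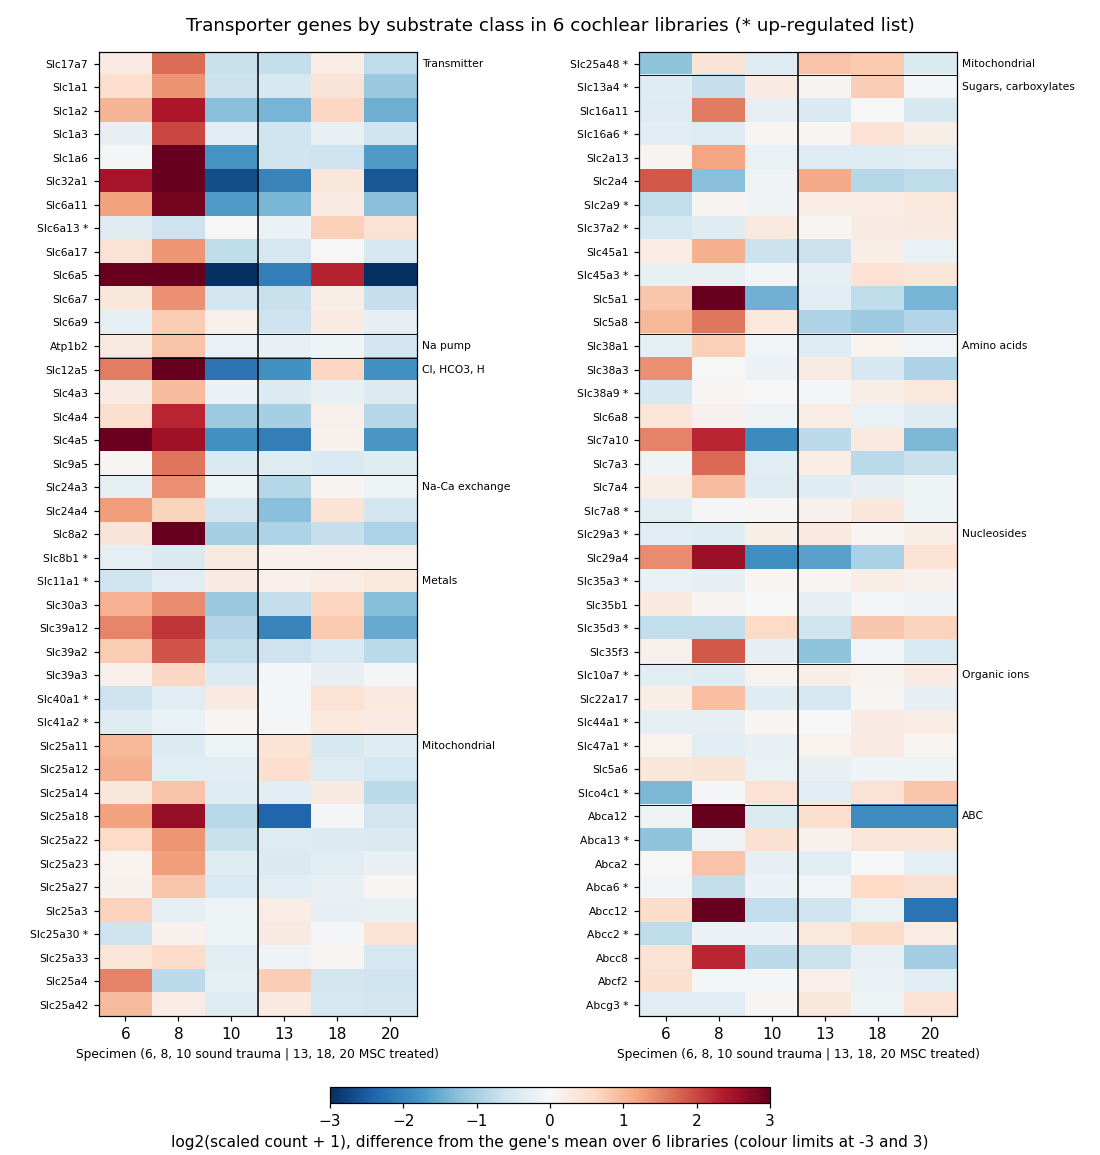
Level of 82 of the 86 transporter genes in the 6 libraries, as the difference of log2(scaled count + 1) from the gene's own mean, with genes in rows by substrate class and specimens in columns (the vertical line separates sound trauma on the left from MSC treated on the right, and an asterisk marks the up-regulated list). Red cells gather in specimen 8, where 46 of the 60 genes of the down-regulated list were highest, and in specimen 6, where the other 14 were.

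Carriers of transmitters made up 13 of the 86 genes, 12 from the down-regulated list and 1 from the up-regulated list, with a median log2 difference of -0.96. Here and in the other classes, where leaving out 1 library moved the log2 difference of a gene by over 1.5 times or changed its sign, the value without that library is given beside it. Of the 13, 11 were highest in specimen 8, Slc6a5 in specimen 6 and Slc6a13 in specimen 18. The groups overlapped in all 13. Over the 12 genes of the down-regulated list the median log2 difference was -1.22, and it was -0.31 without specimen 8, -1.30 without specimen 6 and -1.92 without specimen 10.

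Slc1a2 (GLT-1, the main glutamate carrier of astrocytes) was at 1901, 5155 and 394 scaled counts after sound trauma and 357, 1436 and 339.7 after MSC treatment. Specimen 8 stood 7.25-fold above the MSC treated mean, and specimen 18 was the highest of the treated libraries, while specimen 10 lay among them, for a log2 difference of -1.49 (SE 1.01, -0.63 without specimen 8 and -2.48 without specimen 10). Slc1a3 (GLAST), which in the cochlea takes up glutamate in supporting cells around inner hair cells, was at 983, 4706 and 923 scaled counts after sound trauma and 764, 998 and 766 after MSC treatment. Here only specimen 8 stood apart, and the log2 difference of -0.96 (SE 0.62) was -0.19 without it. Slc1a6 (EAAT4), known for its place in Purkinje cells of the cerebellum, was at 23.2, 685 and 6.25 scaled counts after sound trauma and 15.6, 15.3 and 6.79 after MSC treatment. Its level in specimen 8 was 54.6-fold above the treated mean while specimens 6 and 10 were at 1.84-fold and 0.498-fold of it, and the log2 difference of -1.94 (SE 1.59, -3.33 without specimen 10) was -0.05 without specimen 8, and -4.25 by edgeR and -4.24 by DESeq2 with all libraries. Slc1a1 (EAAC1), a carrier of neurons for glutamate and cysteine, was at 112, 201 and 50.0 scaled counts after sound trauma and 56.1, 104 and 35.9 after MSC treatment. Specimens 8, 6 and 18 were the highest, and the log2 difference was -0.80 (SE 0.59, -0.33 without specimen 8, -1.32 without specimen 10 and -0.44 without specimen 20).

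Slc17a7 (VGLUT1), which fills synaptic vesicles with glutamate, was at 1392, 3706 and 733 scaled counts after sound trauma and 714, 1348 and 683 after MSC treatment. Per length it was the most abundant of the transmitter carriers, with authors' mean FPKM (fragments per kilobase of transcript and per sequencing depth) of 66.4 after sound trauma and 32.4 after MSC treatment. Specimen 8 was highest, specimens 6 and 18 were close to each other, and the log2 difference was -0.84 (SE 0.60, -1.38 without specimen 10), or -0.22 without specimen 8. Slc6a17, a vesicular carrier of neutral amino acids, was at 1531, 2812 and 662 scaled counts after sound trauma and 786, 1117 and 806 after MSC treatment. Specimens 8, 6 and 18 were again the highest, and the log2 difference was -0.67 (SE 0.50, -0.18 without specimen 8 and -1.22 without specimen 10). Slc6a7, the proline carrier, was at 70.7, 144 and 37.5 scaled counts after sound trauma and 34.3, 63.3 and 34.0 after MSC treatment. Specimen 8 was again highest and the other 5 libraries overlapped, with a log2 difference of -0.78 (SE 0.53, -0.29 without specimen 8 and -1.25 without specimen 10).

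Slc32a1, which loads GABA and glycine into vesicles, was at 159, 617 and 3.57 scaled counts after sound trauma and 6.23, 35.7 and 3.88 after MSC treatment. Specimens 6, 8 and 18 held nearly all of it and the other 3 libraries were at 3.57 to 6.23 scaled counts, and the log2 difference was -2.81 (SE 1.82, -1.31 without specimen 8 and -4.85 without specimen 10). Slc6a5 (GlyT2), the glycine carrier of inhibitory terminals, was at 234, 152 and 0.893 scaled counts after sound trauma and 3.12, 82.7 and 0 after MSC treatment. Specimen 10 held 1 read and specimen 20 held 0, so its log2 difference of -2.54 (SE 2.31, -1.28 without specimen 6, -1.59 without specimen 8, -4.76 without specimen 10, -4.33 without specimen 18 and -1.14 without specimen 20) depends on the added count. Slc6a9 (GlyT1), the glycine carrier of glia, was at 825, 1682 and 1095 scaled counts after sound trauma and 641, 1169 and 842 after MSC treatment. Its groups differed little beside their spread, with a log2 difference of -0.42 (SE 0.32, -0.66 without specimen 6, -0.15 without specimen 8, -0.21 without specimen 13 and -0.65 without specimen 18).

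Of the GABA carriers, Slc6a11 (GAT3, in astrocytes) was at 331, 1066 and 43.8 scaled counts after sound trauma and 55.1, 171 and 59.2 after MSC treatment. Specimen 8 was 11.2-fold and specimen 6 was 3.49-fold above the treated mean, specimen 10 was the lowest of the 6, and the log2 difference was -1.59 (SE 1.14, -0.55 without specimen 8 and -2.84 without specimen 10). Slc6a13 (GAT2), a carrier of GABA and taurine in meninges and epithelia, came from the up-regulated list and was at 175, 148 and 228 scaled counts after sound trauma and 201, 375 and 309 after MSC treatment. Specimen 8 was the lowest and specimen 18 the highest, the groups overlapped through specimens 10 and 13, and the log2 difference was 0.65 (SE 0.28).

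Slc6a11 and Slc6a13 encode related carriers for the same transmitter on chromosome 6, and their levels in specimen 8 were the highest and the lowest of the 6 libraries. Their promoters are shown beside each other, as the 250 bases before the start site given by RefSeq on GRCm38.p6, both on the plus strand. GC boxes (the letters GGGCGG or CCGCCC, the same motif on either strand) are in capitals. No link between these sequences and the levels was tested. The Slc6a11 window is chr6:114130991-114131240 and holds 3 GC boxes and 25 CpG dinucleotides. The Slc6a13 window, the first of 3 listed for the gene, is chr6:121300038-121300287 and holds 2 GC boxes and 9 CpG dinucleotides.
Slc6a11: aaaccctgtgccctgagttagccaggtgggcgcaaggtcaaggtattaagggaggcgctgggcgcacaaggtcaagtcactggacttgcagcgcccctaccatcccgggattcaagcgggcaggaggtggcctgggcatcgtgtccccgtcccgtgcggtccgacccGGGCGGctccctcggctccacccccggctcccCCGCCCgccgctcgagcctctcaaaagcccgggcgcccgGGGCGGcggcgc
Slc6a13: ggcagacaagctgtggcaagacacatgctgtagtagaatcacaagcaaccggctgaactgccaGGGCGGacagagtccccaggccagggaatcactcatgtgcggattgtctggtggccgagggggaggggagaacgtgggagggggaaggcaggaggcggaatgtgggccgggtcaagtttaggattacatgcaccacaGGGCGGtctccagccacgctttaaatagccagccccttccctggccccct

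A promoter window could be matched by symbol for 66 of the 86 genes, and 38 of these (57.6%) held at least 1 GC box, beside 8901 of 27025 windows of the same length in the whole table (32.9%). The share was 26 of 46 (56.5%) for the down-regulated and 12 of 20 (60%) for the up-regulated list. The median number of CpG dinucleotides was 13 in the transporter windows and 6 over all windows. These counts describe letters in the windows and no binding was measured. The whole table was not limited to genes in the fit or on the authors' lists, as the transporter genes mostly were. The sets are therefore unlike, and the difference is not read as a trait of transporters.

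The enzymes that make and break down the same transmitters were taken from a list of 16, of which 10 could be found by name, all on the down-regulated list. None of the 10 passed a limma adjusted p of 0.05. Of these, 7 were highest in specimen 8 and 3 in specimen 6. Gad1, which makes GABA, was at 161, 1329.9 and 32.2 scaled counts after sound trauma and 27.0, 67.4 and 36.9 after MSC treatment. Got2, which exchanges amino groups between glutamate and aspartate in mitochondria, was at 5143, 1908 and 2202 and at 3443, 1957 and 1996. Gad1 thus stood high in specimen 8, like Slc32a1 and Slc6a11, and Got2 in specimens 6 and 13.

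**Figure D2:**
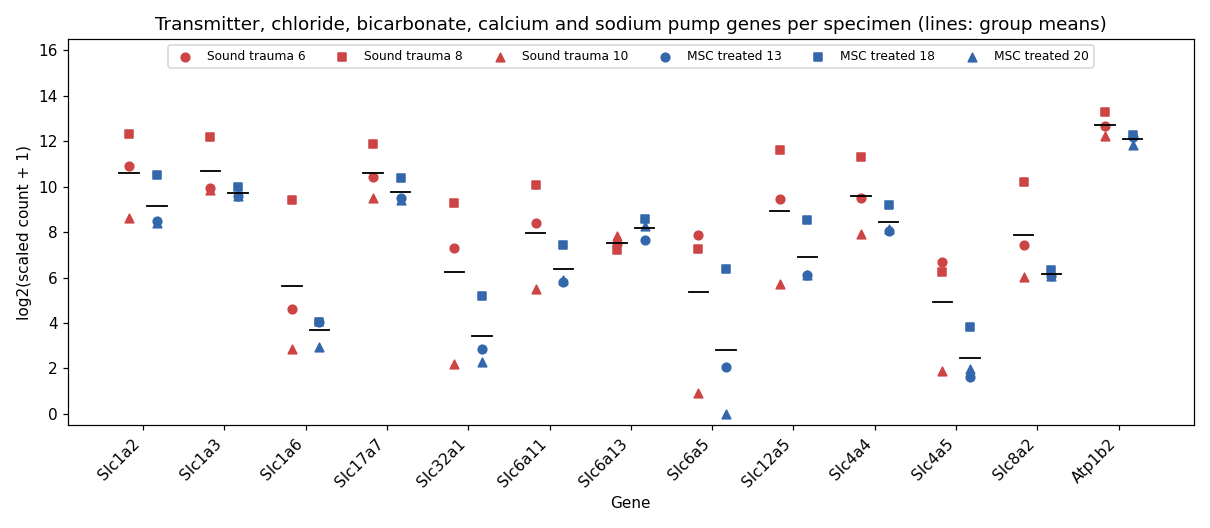
Level of 13 genes, 12 carriers of transmitters and ions and the sodium pump subunit Atp1b2, in each specimen on the log2(scaled count + 1) scale, with sound trauma in red, MSC treated in blue and black lines at the 3-library group means. Except for Slc6a13, Slc6a5 and Slc4a5, the red square of specimen 8 is the highest point of each gene, and the red triangle of specimen 10 lies within or close to the blue points.

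Of the sodium pump, Atp1b2, the beta subunit of glia also called AMOG, came from the down-regulated list and was at 6561, 9890.4 and 4765 scaled counts after sound trauma and 4704, 4969.6 and 3634 after MSC treatment. The groups were close to separation, since only specimen 10 fell among the treated values, and the log2 difference was -0.62 (SE 0.30), or -0.35 without specimen 8. By authors' mean FPKM, Slc25a4 (401 and 309 in the sound trauma and MSC treated groups) was the most abundant of the 86 genes per length, and Atp1b2 was at 171 and 112. Of a list of 12 regulators of the pump, 5 could be found by name, 4 on the down-regulated list and 1, Fxyd5, on the up-regulated list, and none passed the test. Fxyd1, which binds the pump in muscle and other tissues, was at 2437, 724 and 1285 after sound trauma and 1784, 860 and 906 after MSC treatment, high in specimens 6 and 13. The others did not share 1 order, since Lynx1 was highest in specimen 6, Nkain1 and Nkain4 in specimen 8 and Fxyd5 in specimen 10.

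Chloride, bicarbonate and proton transport was represented by 6 genes, with a median log2 difference of -0.96 that ranged from -1.58 without specimen 10 to -0.32 without specimen 8 when single libraries were left out. Slc12a5 (KCC2), the potassium chloride cotransporter of central neurons that sets their response to GABA, was at 698, 3099.5 and 50.9 scaled counts after sound trauma and 67.5, 371 and 67.9 after MSC treatment. Specimen 8 stood 18.4-fold and specimen 6 stood 4.13-fold above the treated mean, specimen 10 was the lowest library, and the log2 difference of -2.00 (SE 1.504, -3.61 without specimen 10) was -0.66 without specimen 8.

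Slc4a4 (NBCe1), a sodium bicarbonate cotransporter of astrocytes and epithelia, was at 725, 2525 and 243 scaled counts after sound trauma and 259.7, 579 and 283 after MSC treatment. Specimen 8 was highest and specimen 10 the lowest, with a log2 difference of -1.13 (SE 0.82, -1.95 without specimen 10), or -0.26 without specimen 8. Slc4a5 (NBCe2), a bicarbonate carrier of the choroid plexus, was at 101, 74.6 and 2.68 scaled counts after sound trauma and 2.08, 13.3 and 2.91 after MSC treatment. It was high in specimens 6 and 8 and at or under the floor in specimens 10, 13 and 20, with a log2 difference of -2.45 (SE 1.35, -1.58 without specimen 6 and -3.98 without specimen 10). The choroid plexus markers were likewise high in specimens 6 and 8, and their part in this difference was not tested. Slc4a3 (AE3), a chloride bicarbonate exchanger of neurons and heart, was at 636, 1048 and 478 scaled counts after sound trauma and 406, 465 and 406 after MSC treatment. All 3 sound trauma values lay above the 3 treated values, with specimen 10 just above specimen 18, and the log2 difference was -0.68 (SE 0.28), or -0.38 without specimen 8. Slc9a5 (NHE5), a sodium proton exchanger of neurons, was at 152, 454 and 109 scaled counts after sound trauma and 114, 108 and 115 after MSC treatment. Specimen 10 was level with the treated libraries, and the log2 difference was -0.80 (SE 0.51, -1.22 without specimen 10), or -0.19 without specimen 8.

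A list of 19 further genes of potassium and acid-base handling in the endolymph yielded 6 by name, 4 from the up-regulated and 2 from the down-regulated list, and none passed the test. Kcne1, a subunit of the potassium channel through which the stria vascularis secretes, was at 120.5, 93.7 and 331 scaled counts after sound trauma and 262, 282 and 237 after MSC treatment. Its highest value was in specimen 10, above all 3 treated libraries.

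Sodium calcium exchange held 4 genes. Slc8a2 (NCX2), the exchanger of neurons and glia, was at 169, 1175 and 63.4 scaled counts after sound trauma and 66.5, 78.6 and 66.0 after MSC treatment. Specimen 8 stood 16.7-fold above the treated mean, specimen 10 lay just below all 3 treated values, and the log2 difference of -1.72 (SE 0.98, -2.65 without specimen 10) was -0.56 without specimen 8, and -2.75 by edgeR and -2.74 by DESeq2 with all libraries. Slc24a3, a potassium-dependent exchanger, was at 253, 806 and 276 scaled counts after sound trauma and 171, 325 and 278 after MSC treatment. Apart from specimen 8 the libraries overlapped, with a log2 difference of -0.62 (SE 0.49, -0.35 without specimen 13), or -0.08 without specimen 8. Slc24a4, its relative, was at 46.4, 30.6 and 12.5 scaled counts after sound trauma and 7.27, 25.5 and 12.6 after MSC treatment. Specimen 6 was the highest here, and the log2 difference was -0.92 (SE 0.63, -0.52 without specimen 6, -1.43 without specimen 10 and -0.52 without specimen 13). Slc8b1 (NCLX), which moves calcium out of mitochondria, was on the up-regulated list at 385, 340.4 and 555 scaled counts after sound trauma and 505, 517 and 511 after MSC treatment. Specimens 6 and 8 were below the treated libraries and specimen 10 above them, with a log2 difference of 0.29 (SE 0.20, 0.14 without specimen 8 and 0.50 without specimen 10).

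Of 7 metal carriers, the 4 that handle zinc were on the down-regulated list and 3 for iron, manganese or magnesium on the up-regulated list. Slc39a12 (ZIP12), a zinc importer of brain, was at 168, 272 and 32.2 scaled counts after sound trauma and 14.5, 104 and 20.4 after MSC treatment. Specimens 8, 6 and 18 were the highest, and the log2 difference was -1.82 (SE 1.004, -1.20 without specimen 8). Slc39a2 (ZIP2) was at 39.4, 88.0 and 13.4 scaled counts after sound trauma and 14.5, 16.3 and 12.6 after MSC treatment. Specimens 8 and 6 were above the rest, with a log2 difference of -1.27 (SE 0.65, -0.64 without specimen 8 and -1.96 without specimen 10). Slc30a3 (ZnT3), which fills synaptic vesicles with zinc, was at 23.2, 30.6 and 4.47 scaled counts after sound trauma and 6.23, 17.4 and 3.88 after MSC treatment. Levels were low and the groups overlapped, with a log2 difference of -0.90 (SE 0.82, -0.41 without specimen 8, -1.67 without specimen 10, -1.44 without specimen 18 and -0.48 without specimen 20), or -0.55 with an added count of 10. Slc39a3 (ZIP3) was at 499, 685 and 338 scaled counts after sound trauma and 428, 377 and 430.0 after MSC treatment. Specimen 10 was the lowest of the 6, and the log2 difference of -0.24 (SE 0.26, -0.51 without specimen 10) was 0.00 without specimen 8.

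Slc40a1 (ferroportin), the iron exporter of macrophages and epithelia, was at 606, 730.4 and 1135 scaled counts after sound trauma and 903, 1247 and 1143 after MSC treatment. Specimens 6 and 8 were the lowest and specimen 10 was level with specimen 20, with a log2 difference of 0.45 (SE 0.26, 0.26 without specimen 6 and 0.71 without specimen 10). Slc11a1 (NRAMP1), a metal carrier of macrophage phagosomes, was at 255, 306 and 460.1 scaled counts after sound trauma and 429, 450.4 and 481 after MSC treatment. It had the same order of sound trauma libraries and a log2 difference of 0.46 (SE 0.23, 0.27 without specimen 6 and 0.70 without specimen 10). The 6 macrophage and neutrophil markers found by name, all from the up-regulated list, summed to 7608, 9508 and 14858 after sound trauma and 11578, 13273 and 12533 after MSC treatment. Specimens 6 and 8 were the lowest in that sum and specimen 10 the highest, and its part in the levels of Slc40a1 and Slc11a1 was not tested.

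Mitochondrial carriers were the largest class, with 14 genes, 12 of them from the down-regulated list, and they divided by library. Of the 12, 6 were highest in specimen 8 and 6 in specimen 6. Slc25a18, a glutamate carrier of astrocytes, was at 124, 327 and 29.5 scaled counts after sound trauma and 9.35, 51.1 and 35.9 after MSC treatment. Specimen 8 stood 10.2-fold above the treated mean and specimen 13 was the lowest, with a log2 difference of -1.99 (SE 0.98, -1.19 without specimen 8 and -1.30 without specimen 13). Slc25a22, the other glutamate carrier, was at 1147, 1925 and 482 scaled counts after sound trauma and 582, 577 and 569.8 after MSC treatment. Specimens 8 and 6 were above the other 4, which lay close together, and the log2 difference was -0.82 (SE 0.47, -0.37 without specimen 8 and -1.37 without specimen 10).

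Slc25a4 (ANT1), which exchanges ADP for ATP and is the form of muscle and heart, was at 20191, 4175 and 5969 scaled counts after sound trauma and 11938, 4888 and 4736 after MSC treatment. Specimens 6 and 13, one from each group, were the highest, and specimen 8 was the lowest. The log2 difference of -0.29 (SE 0.66, -0.75 without specimen 8, -0.50 without specimen 10, -0.73 without specimen 13, -0.081 without specimen 18 and -0.058 without specimen 20) was 0.38 without specimen 6, which reversed its direction, and -0.501 by edgeR and -0.52 by DESeq2 with all libraries. Slc25a3, the phosphate carrier, was at 6781, 3480.1 and 3778 scaled counts after sound trauma and 4933, 3527 and 3594 after MSC treatment. It had the same 2 high libraries, and the log2 difference of -0.17 (SE 0.30, -0.35 without specimen 8, -0.29 without specimen 10, -0.33 without specimen 13, -0.086 without specimen 18 and -0.099 without specimen 20) was 0.13 without specimen 6 and -0.099 with scaling by total counts. Slc25a12, the aspartate glutamate carrier, was at 3629, 1399 and 1373 scaled counts after sound trauma and 2447, 1326 and 1211 after MSC treatment, and without specimen 6 its log2 difference of -0.28 (SE 0.45, -0.50 without specimen 8, -0.51 without specimen 10, -0.59 without specimen 13, -0.15 without specimen 18 and -0.085 without specimen 20) became 0.19. For Slc25a11, the oxoglutarate carrier, the log2 difference of -0.29 (SE 0.42, -0.57 without specimen 8, -0.44 without specimen 10, -0.57 without specimen 13, -0.13 without specimen 18 and -0.18 without specimen 20) became 0.14 without specimen 6.

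Slc25a48, from the up-regulated list, had a log2 difference of 0.81 (SE 0.58, 0.41 without specimen 6 and 1.23 without specimen 20), and of 0.47 with an added count of 10. It was at 4.64, 16.3 and 8.93 scaled counts after sound trauma and 22.9, 21.4 and 8.74 after MSC treatment. The low value of specimen 6 was 4 reads, specimen 20 lay below specimens 8 and 10, and the groups overlapped.

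Carriers of sugars, carboxylates and sulphate held 11 genes in both directions, with a median log2 difference of 0.01. That median was -0.33 with no filter beyond 1 read and 0.35 with at least 10 reads in every library. Slc5a8 (SMCT1), a sodium-coupled carrier of lactate and other short acids, was at 38.2, 57.4 and 23.2 scaled counts after sound trauma and 9.35, 8.17 and 9.71 after MSC treatment. All 3 sound trauma libraries were above the treated ones, by 4.21-fold, 6.32-fold and 2.56-fold over the treated mean, which is the one case among the 60 genes of the down-regulated list where specimen 10 was more than 2-fold above it. The log2 difference of -1.92 (SE 0.39) stayed between -2.25 and -1.62 when single libraries were left out. Its reads were few, and its adjusted p in limma was 0.954. Slc2a13, a proton myo-inositol cotransporter, was at 184, 397 and 151 scaled counts after sound trauma and 133, 133 and 139 after MSC treatment. The groups did not overlap, though specimen 10 was only just above the treated values, and the log2 difference was -0.72 (SE 0.36, -0.31 without specimen 8). Slc16a11, a monocarboxylate carrier, was at 202, 774 and 221 scaled counts after sound trauma and 194, 258 and 186 after MSC treatment. Specimen 8 alone stood apart, and the log2 difference of -0.63 (SE 0.52, -0.97 without specimen 6) was 0.00 without it.

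Slc2a4 (GLUT4), the insulin-regulated glucose carrier of muscle and fat, was at 3755, 431 and 969 scaled counts after sound trauma and 2262, 571 and 609.6 after MSC treatment. Like Slc25a4 it was high in specimens 6 and 13 and lowest in specimen 8, and the log2 difference of -0.33 (SE 0.88, -1.05 without specimen 8, -0.98 without specimen 13, 0.015 without specimen 18 and -0.033 without specimen 20) was 0.51 without specimen 6, and -0.59 by edgeR and -0.61 by DESeq2 with all libraries. Slc5a1 (SGLT1), the sodium glucose cotransporter of epithelia and not in the fit, was at 8.11, 43.0 and 0.893 scaled counts after sound trauma and 3.12, 2.04 and 0.971 after MSC treatment. It was above the floor only in specimens 8 and 6 and lay near or under it in the rest.

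From the up-regulated list, Slc16a6, a carrier of ketone bodies and taurine, was at 442, 424 and 575 scaled counts after sound trauma and 579, 746 and 623 after MSC treatment. The 3 treated values were above the 3 sound trauma values, with specimen 13 just above specimen 10, and the log2 difference was 0.44 (SE 0.17). Slc2a9, the urate carrier, was at 35.9, 65.0 and 56.3 scaled counts after sound trauma and 71.7, 71.5 and 76.7 after MSC treatment. The treated values were separate from the sound trauma values and close together, and the log2 difference was 0.52 (SE 0.27, 0.27 without specimen 6). Slc13a4, a sulphate carrier, was at 573, 462 and 884 scaled counts after sound trauma and 784, 1247 and 725 after MSC treatment. Specimen 18 was the highest and specimen 10 the second highest, with a log2 difference of 0.53 (SE 0.31, 0.33 without specimen 8 and 0.29 without specimen 18).

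Among 8 carriers of amino acids and creatine, Slc7a10 (Asc-1), a carrier of small neutral amino acids and D-serine, was at 159, 276 and 14.3 scaled counts after sound trauma and 32.2, 69.4 and 21.4 after MSC treatment. Specimens 8 and 6 were highest and specimen 10 lowest, with a log2 difference of -1.23 (SE 1.09, -0.80 without specimen 6, -0.40 without specimen 8 and -2.49 without specimen 10), or -1.88 by both edgeR and DESeq2. Slc38a3 (SNAT3), a glutamine carrier, was at 1561, 606 and 532 scaled counts after sound trauma and 716, 426 and 315 after MSC treatment. Specimens 6 and 13 were the highest, and the log2 difference of -0.79 (SE 0.48, -0.53 without specimen 20) was -0.31 without specimen 6. Slc38a1 (SNAT1), the glutamine carrier of neurons, was at 1240.0, 2428 and 1412 scaled counts after sound trauma and 1129, 1592 and 1411 after MSC treatment. Only specimen 8 stood out, and the log2 difference of -0.25 (SE 0.28, -0.44 without specimen 6 and -0.11 without specimen 13) was 0.04 without it. Slc7a4 was at 99.7, 164 and 67.0 scaled counts after sound trauma and 67.5, 72.5 and 78.6 after MSC treatment. The treated libraries and specimen 10 were close together, with a log2 difference of -0.50 (SE 0.34, -0.17 without specimen 8 and -0.81 without specimen 10). Slc6a8, the creatine carrier, was at 1677, 1433 and 1179 scaled counts after sound trauma and 1537, 1136 and 1020.2 after MSC treatment. Specimens 6 and 13 were again the highest, and the log2 difference was -0.22 (SE 0.21, -0.10 without specimen 6, -0.35 without specimen 10, -0.39 without specimen 13 and -0.099 without specimen 20). Slc7a3, a carrier of cationic amino acids not in the fit, ranged from 6.13 to 39.2 scaled counts, with its highest value in specimen 8.

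Nucleoside and nucleotide sugar carriers were 6, with 3 from each list. Slc29a4, a carrier of monoamines and adenosine, was at 154, 351 and 15.2 scaled counts after sound trauma and 17.7, 28.6 and 77.7 after MSC treatment. Specimen 10 was the lowest of all and specimen 20 the highest treated library, with a log2 difference of -1.45 (SE 1.17, -0.51 without specimen 8 and -2.73 without specimen 10). Slc35f3 was at 38.2, 129 and 29.5 scaled counts after sound trauma and 14.5, 32.7 and 25.2 after MSC treatment. Specimen 8 was the highest, with a log2 difference of -1.17 (SE 0.61, -0.53 without specimen 8). Slc35b1, which brings ATP into the endoplasmic reticulum, was at 494, 426 and 404 scaled counts after sound trauma and 341, 393 and 373 after MSC treatment. The groups were separate by a narrow gap between specimens 10 and 18, and the log2 difference was -0.26 (SE 0.13). Slc35a3, which brings UDP-N-acetylglucosamine into the Golgi apparatus, was at 246, 238 and 288 scaled counts after sound trauma and 294, 322 and 309 after MSC treatment. Its groups were separate in the other direction by a gap between specimens 10 and 13, and the log2 difference was 0.26 (SE 0.14). Slc35d3 was at 60.3, 60.2 and 155 scaled counts after sound trauma and 66.5, 179 and 160.2 after MSC treatment. Specimens 6, 8 and 13 were low and the other 3 high, with a log2 difference of 0.58 (SE 0.52, 0.36 without specimen 6, 0.36 without specimen 8, 1.03 without specimen 10, 1.03 without specimen 13 and 0.32 without specimen 18).

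Organic ion, bile acid, choline and vitamin carriers were 6, of which 4 came from the up-regulated list. Slco4c1, an organic anion carrier, was at 37.1, 93.7 and 129 scaled counts after sound trauma and 75.8, 129.7 and 171 after MSC treatment. Specimen 6 was the lowest and the rest overlapped, with a log2 difference of 0.63 (SE 0.52, 0.11 without specimen 6, 0.998 without specimen 10, 0.95 without specimen 13 and 0.37 without specimen 20). Slc10a7 was at 137, 132 and 184 scaled counts after sound trauma and 195, 184 and 202 after MSC treatment. Specimens 6 and 8 were below the treated libraries and specimen 10 was level with specimen 18, with a log2 difference of 0.37 (SE 0.18). Slc44a1, a choline carrier, was at 884, 921 and 1128 scaled counts after sound trauma and 1098, 1283 and 1267 after MSC treatment. Specimens 6 and 8 were again the lowest, with a log2 difference of 0.32 (SE 0.14). Slc22a17, a receptor for lipocalin 2, was at 1527, 2509.7 and 1035 scaled counts after sound trauma and 916, 1376 and 1115 after MSC treatment. Specimen 8 was the highest, and the log2 difference was -0.50 (SE 0.33, -0.17 without specimen 8 and -0.80 without specimen 10).

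Of 9 ABC transporters, 5 came from the down-regulated and 4 from the up-regulated list. Abcc8, the sulphonylurea receptor subunit of ATP-sensitive potassium channels, was at 151, 549.7 and 65.2 scaled counts after sound trauma and 71.7, 96.0 and 54.4 after MSC treatment. Specimen 8 stood 7.43-fold above the treated mean, and the log2 difference of -1.27 (SE 0.74, -1.98 without specimen 10) was -0.46 without it. Abca2, a lipid transporter of myelinating cells, was at 2925, 5333 and 2515 scaled counts after sound trauma and 2332, 3017 and 2480.2 after MSC treatment. Specimens 8 and 18 were the highest, and the log2 difference of -0.39 (SE 0.30, -0.61 without specimen 10) was -0.06 without specimen 8. Abcf2, an ABC protein without membrane spans, was at 1224, 836 and 853 scaled counts after sound trauma and 970.4, 762 and 694 after MSC treatment. Specimens 6 and 13 were the highest, with a log2 difference of -0.26 (SE 0.21, -0.077 without specimen 6, -0.39 without specimen 13 and -0.15 without specimen 20). Abca12 and Abcc12 were at 50.7 and 41.1 scaled counts in specimen 8 and at most 5.79 in any other library, near or under the floor in most.

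Abcc2 (MRP2), an exporter of conjugated compounds, was at 9.27, 14.3 and 14.3 scaled counts after sound trauma and 20.8, 24.5 and 19.4 after MSC treatment. Treated values were all above sound trauma values, at low counts, and the log2 difference was 0.74 (SE 0.32), or 0.49 with 10 in place of 1 as the added count. Abca6 was at 74.2, 46.8 and 68.8 scaled counts after sound trauma and 73.8, 119 and 107 after MSC treatment. Specimen 13 was just below specimen 6, so that the groups overlapped, with a log2 difference of 0.65 (SE 0.29). 

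Across the classes, the 86 genes were grouped by the library in which they were highest. Of the 60 genes of the down-regulated list, 46 were highest in specimen 8 and 14 in specimen 6. Their lowest library was specimen 20 in 20 genes, specimen 13 in 16, specimen 10 in 14, specimen 18 in 7 and specimen 8 in 3. The median difference from the treated mean was 0.88 on the log2 scale for specimen 6, 1.71 for specimen 8 and -0.10 for specimen 10. More than 2-fold above the treated mean were 44 genes in specimen 8, 26 in specimen 6 and 1 in specimen 10. Specimen 10 lay within the range of the 3 treated libraries in 42 of the 60 genes, and in 58 of all 86 (67.4%), beside 55.8% of all genes in the fit.

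Of the 46 genes highest in specimen 8, 37 had specimen 6 second, and 33 (71.7%) had specimen 18 as the highest of the treated libraries. Of the 4500 genes in the fit that were highest in specimen 8, 1654 had specimen 6 second, and specimen 18 was the highest treated library in 41.8%. All 46 came from the down-regulated list, a choice that itself favours high values in sound trauma libraries, so nothing is read from these counts. The median deviations of the 46 from their own means on the log2 scale were 0.34, 1.57 and -0.50 after sound trauma and -0.60, -0.04 and -0.59 after MSC treatment. Markers of myelinating cells had medians of 0.66, 1.497 and -0.81 and of -1.13, 0.70 and -0.60, and those of central neurons had 1.23, 3.98 and -1.65 and -1.29, -0.59 and -1.07. The part of these tissues in the transporter levels was not tested.

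Of the 14 genes highest in specimen 6, 9 had specimen 13 second, namely Slc25a3, Slc25a4, Slc25a11, Slc25a12, Slc25a42, Slc2a4, Slc38a3, Slc6a8 and Abcf2. Over all genes in the fit, 1894 of the 3377 highest in specimen 6 had specimen 13 second (56.1%, beside 64.3% of the transporter genes), and specimen 13 was the highest treated library in 72.0% of them (71.4% of the transporter genes), so these shares were close to those over all genes. The median deviations of the 9 genes were 1.005, -0.27 and -0.16 after sound trauma and 0.29, -0.48 and -0.52 after MSC treatment. The 12 muscle markers had the same 2 libraries on top, with medians of 2.48, -2.13 and 0.31 and of 1.60, -1.09 and -0.90, and their part was not tested. The other 5, among them Slc6a5, Slc4a5, Slc24a4 and Slc35b1, had specimen 8 second, as had 634 of the 3377 over all genes.

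The 26 genes of the up-regulated list had small differences in the same libraries. They were lowest in specimen 6 in 14 genes, in specimen 8 in 11 and in specimen 13 in 1, and highest in specimen 18 in 13, specimen 20 in 8, specimen 10 in 3 and specimen 13 in 2. Median deviations were -0.37, -0.27 and 0.05 after sound trauma and 0.08, 0.28 and 0.26 after MSC treatment. Specimen 10 was within the treated range in 16 of the 26.

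**Figure D3:**
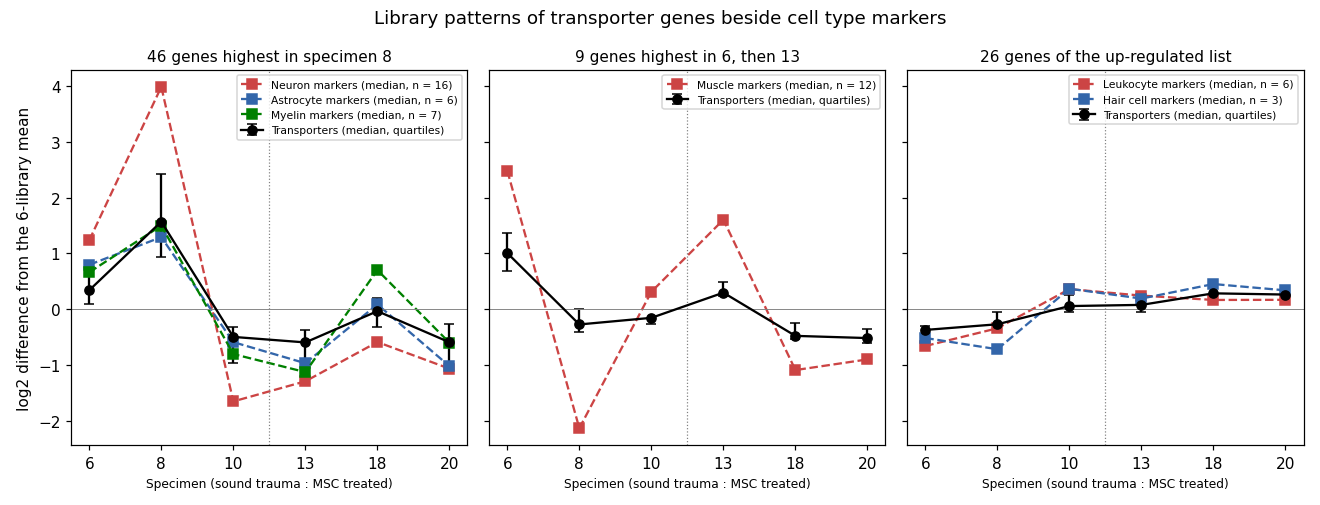
Median difference of log2(scaled count + 1) from each gene's 6-library mean, by specimen, for the 46 transporters highest in specimen 8, the 9 highest in specimen 6 and then 13, and the 26 of the up-regulated list (black, with bars from the first to the third quartile over genes), beside medians of cell type marker lists (dashed). The black line peaks at 1.57 in specimen 8 in the left panel and at 1.005 in specimen 6 in the middle panel, and stays between -0.37 and 0.28 in the right panel.

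Leaving out single libraries of the sound trauma group changed the sizes of the differences. Their directions were set by the lists that chose the genes, and these fits reuse the remaining libraries, so a kept direction is no test. Without specimen 8, the median log2 difference over the genes of the down-regulated list was -0.35 in place of -0.70, 16 of the 56 genes were within 0.2 of 0, and 2 (Slc39a3 and Slc38a1) turned positive. Without specimen 6 the median was -0.74, 7 genes were within 0.2 of 0, and 5 turned positive. Without specimen 10 the median was -1.05 and the log2 difference of all 56 genes was further below 0 than with all libraries. The genes of the up-regulated list all stayed positive, with medians of 0.35 without specimen 8, 0.27 without specimen 6 and 0.56 without specimen 10. Among the classes, the down-regulated members of the transmitter class moved the most without specimen 8, from -1.22 to -0.31, followed by chloride and acid-base carriers, from -1.13 to -0.38. Without specimen 10 these medians were -1.92 and -1.95. The down-regulated mitochondrial carriers went from -0.44 to -0.37 without specimen 8 and to -0.31 without specimen 6.

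**Figure D4:**
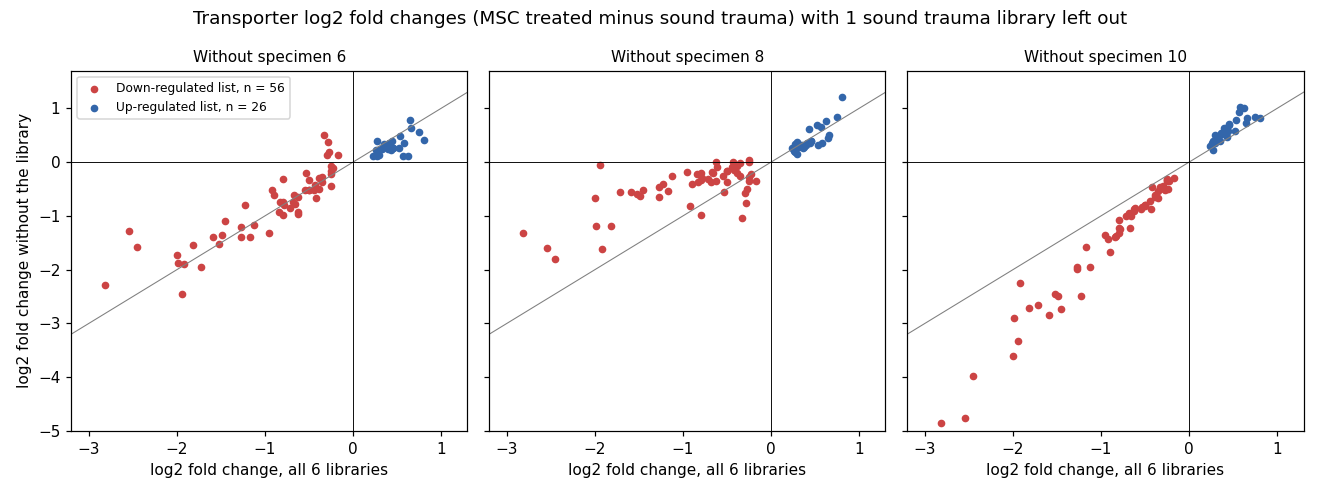
Log2 difference (MSC treated minus sound trauma) of the 82 transporter genes in the fit with all 6 libraries on the horizontal axis and with specimen 6, 8 or 10 left out on the vertical axis, with the down-regulated list in red and the up-regulated list in blue and a grey line of equality. Without specimen 8 most red points lie above the line and nearer to 0 (median -0.35 in place of -0.70), and without specimen 10 all red points lie below it (median -1.05).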

How the data were processed

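Reads were trimmed and aligned by the authors to the C57BL/6NJ genome. The deposited signal per gene is its count times a TMM factor of the library. Whole reads were recovered in 100% of values within a tolerance of 0.001. The counter, its use of strand and its treatment of overlapping genes or near-identical copies are not given in the sources used here. The authors also deposited 2 gene lists with the mean FPKM of each group, and their fold changes and false discovery rates were not used. The mean FPKM is printed only where levels are compared between genes.

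The design assumed raw counts, so limma-trend on log2(scaled count + 1) was used in their place, after the filter of edgeR on recovered reads left 15970 of 25369 genes with a read. P-values were adjusted over all 15970. Alternatives were edgeR, DESeq2, pseudocounts of 0.1 and 10, other scalings and filters, and each library left out. On simulated data limma recovered 97 of 100 genes changed 8-fold and 6 of 100 changed 2-fold, with 3 false calls. The simulation gave every gene the same dispersion and no differences between libraries of a group that many genes share. The real libraries had such differences, so these counts do not show which changes could be detected here.

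Members, classes and marker lists were chosen with earlier results of these data known. Genes were named by class, from the largest differences, the most abundant and the separated ones, and others (Slc6a13, Slc6a9, Slc6a17, Slc11a1, Slc25a11, Slc25a12, Slc25a42, Ttr, Folr1, Clic6 and the genes of the closing observations) were added after their values were seen, as were the untested genes. Markers were found only where the lists gave a symbol. Fits were made in limma 3.58.1, DESeq2 1.42.0 and edgeR 4.0.16 under R 4.3.3, and tables and plots in pandas 2.3.3 and matplotlib 3.10.9 under Python 3.11.15. Promoter windows came from RefSeq (GRCm38.p6), and no other coordinates are given because the builds differ. Results for some members are not reported here by name, and counts and medians include them.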

Additional observations from a re-analysis of the deposited data

How the results depend on the processing

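The counts of genes with a lower (56) and higher (26) mean were within 1.5 times of these under all alternatives run, from 48 to 60 lower and from 24 to 31 higher. No transporter gene reached an adjusted p under 0.05 under any of them, and 1 of all genes did so without specimen 10 (Ttr, a choroid plexus gene, adjusted p = 0.0365 with limma), so that count ranged from 0 to 1 with single libraries left out. With 1 library left out, limma was fitted again, so the spread within groups was estimated from the remaining libraries only. The medians of 2 classes moved by more than 1 SD between libraries. That of the sugar and carboxylate carriers was 0.01 in the main fit, -0.33 with no filter beyond 1 read, 0.35 with at least 10 reads in every library and -0.11 with DESeq2, and ranged from -0.031 to 0.26 with single libraries left out. That of the ABC transporters was 0.41, -0.26 with no filter, 0.0797 with at least 10 reads, and from 0.11 to 0.53 with single libraries left out. These filters changed how many genes of the class were counted. The median of the metal carriers moved by less than that SD but changed sign, from -0.24 to 0.043 with at least 10 reads in every library, and ranged from -0.51 to 0.00053 with single libraries left out. Other class medians shifted in size with single libraries left out, from -1.38 to -0.29 for the transmitter class, from -1.58 to -0.32 for chloride and acid-base carriers, from -1.14 to -0.32 for sodium calcium exchange and from -0.66 to -0.24 for mitochondrial carriers. That of the nucleoside carriers lay near 0 on either side, from -0.03 to 0.05. Of the genes named, 7 reversed direction, each when a single library was left out. Their log2 difference ranged from -0.75 to 0.38 for Slc25a4, from -0.35 to 0.13 for Slc25a3, from -0.57 to 0.14 for Slc25a11, from -0.59 to 0.19 for Slc25a12 and from -1.05 to 0.51 for Slc2a4, with the highest value without specimen 6. It ranged from -0.51 to 0.00053 for Slc39a3 and from -0.44 to 0.044 for Slc38a1, with the highest value without specimen 8. Without specimen 18, Slc2a4 was also above 0, at 0.01. Apart from single libraries, the added count of 10, the scaling by total counts or the count models moved 9 named genes by over 1.5 times, each in its main direction, as given beside them. Scaling by total counts moved the median of all genes to 0.07 and the share of genes with a lower mean from 49.8% to 38.1%, and the transporter counts stayed at 56 and 26. At an unadjusted p under 0.05, limma called 107 lower and 269 higher genes, edgeR 266 and 259, DESeq2 550 and 249, and limma without specimen 10 called 1083 and 1395. No paired analysis was possible because the groups share no specimen numbers. Genes with reads near the floor, such as Slc6a5 and Slc4a5, are limited by depth, and the floor covers counting error only.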

Other observations

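Among the transporter genes not yet given by value, Slc37a2, a glucose phosphate carrier known from macrophages, was at 381, 424 and 666 scaled counts after sound trauma and 573, 651 and 661 after MSC treatment. Specimen 10 was the highest of the 6. Slc47a1 (MATE1), an exporter of organic cations, was at 439, 329 and 351 and at 435, 485 and 422, so that its highest sound trauma value was in specimen 6. Slc7a8 (LAT2), a carrier of neutral amino acids, was at 993, 1223 and 1279 and at 1376, 1589 and 1154, with a log2 difference of 0.23 (SE 0.17, 0.12 without specimen 6 or specimen 18 and 0.35 without specimen 20). Slc25a23, a carrier of ATP and phosphate, was at 1051, 2346 and 760.3 and at 729, 776 and 836, with only specimens 8 and 6 above the treated values. These genes were chosen after their values were seen, and the groups overlapped in all 4.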
